A study of Mus musculus with 8 samples.

Results

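The genes described here are the collagens, the laminins and 8 further genes of the basement membrane and its receptors: Nid1, Nid2, Hspg2, Agrn, Fn1, Sparc, Itga6 and Itgb1. They were chosen by name, as every array probe whose gene name was one of the 8, a collagen chain (Col, a number, a and a number) or a laminin chain (Lama, Lamb or Lamc and a number). This gave 57 genes with 112 probes. Agrn, present under its older name agrin, and Hspg2, present under clone names described as perlecan, added 2 genes with 5 probes. Col4a3bp, a lipid transfer protein with 4 probes, was left out because it is no collagen. Of the 59 members, 46 had a probe above background and were tested, among 16939 genes tested in all.

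The study examined the adult mouse testis after exposure to DEHP, di-(2-ethylhexyl) phthalate, which is used to soften plastics. Male C57BL/6J mice, aged 21 weeks at the end, received DEHP in corn oil at 200 mg/kg/day by daily gavage for 21 days (4 mice) or corn oil alone (4 mice). RNA from laser-captured parts of the right testis was amplified repeatedly and compared on 8 Agilent arrays of 2 colours: each DEHP mouse was set against 1 vehicle mouse on 2 arrays of opposite dye. Pairs are numbered by the DEHP mouse, and pairs 1 to 4 held vehicle mice 2, 3, 4 and 1. Arrays carrying DEHP in Cy5 (4) and in Cy3 (4) were on separate slides, so a slide effect and a dye effect cannot be told apart, and each pair's value is the mean of both arrays.

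The labels describe the tissue as Sertoli-cell-rich areas of the seminiferous epithelium, while their protocol text speaks of capturing Leydig cells, the steroid-making cells between the tubules. Of 16 Sertoli cell markers, 15 were above background and 13 of these in all 16 channels, with Gata4 not kept. Of 9 Leydig cell markers, 5 were kept, all in 16 channels, and Cyp11a1, Hsd17b3, Hsd3b6 and Lhcgr were not. Markers of peritubular myoid cells (6 of 7 kept), fibroblasts (5 of 7), macrophages (8 of 10), endothelium (5 of 10) and germ cells (13 of 13) were present too. In such captures, fewer cells of a type and less RNA per cell cannot be told apart.

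A basement membrane is a sheet of matrix that underlies epithelia. Heterotrimers of laminin (an alpha, a beta and a gamma chain) and of collagen IV each assemble into a network, and nidogens, perlecan (Hspg2) and agrin link the networks. In the testis such a sheet lies under the seminiferous epithelium, where Sertoli cells and spermatogonia rest on it and peritubular myoid cells contribute to it, while fibrillar collagens lie further out.

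Col4a1 and Col15a1 were seen by 1 of their 2 probes, as were other members such as Col16a1 and Col1a2. The probes of Col4a4 and Col22a1 varied differently over the pairs, and those of Sparc varied alike. The first 30 of the 60 bases of the probes of Col4a1, Col4a4, Col15a1, Col22a1 and Sparc are shown as examples. They are printed 5′ to 3′, in lower case throughout because no base is singled out. Col4a1 is a chain of the main collagen IV network, Col4a4 of the network with alpha 3 and alpha 5, Col15a1 a collagen of basement membrane zones, and Col22a1 a collagen of tissue junctions. The first of each couple was brighter.
Col4a1, brighter probe: atagagagaagcgagatgttcaagaagccc
Col4a1, dimmer probe: ttttcgtctctggagaaactgtactatcct
Col4a4, brighter probe: tacatgtggagttgctcccccttctccttt
Col4a4, dimmer probe: atgaagttgtgtgtatgtatgtattacgtg
Col15a1, brighter probe: gctaacaggctaatcgtgctgtgcatcgaa
Col15a1, dimmer probe: acacatctgtcaaaagagaaaccaaagaaa
Col22a1, brighter probe: ctcctggaaaaccagtatgtcacctgccgg
Col22a1, dimmer probe: tggcctgaaccccttcaagttcctcatgct
Sparc, brighter probe: tgcaaactctcacagcgatgtgaagagctt
Sparc, dimmer probe: gtacatcttccctgtccactggcagtttgg

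In the array's design (mm7), the Col15a1 probes lie 170 bases apart on the plus strand, at chr4:47326045-47326104 and chr4:47326215-47326274. The first was above background in 16 of 16 channels and the second in 0. For Col4a1, on the minus strand of chromosome 8, the probe at chr8:11167857-11169691 was above background in 16 channels and the one at chr8:11167020-11167079 in 1. Both Col4a4 probes (chr1:82661529-82661590 and chr1:82657164-82657223) and both Col22a1 probes (chr15:71951550-71951609 and chr15:71881125-71881184) were above background in 15 or 16 channels, and both Sparc probes (chr11:55351268-55351327 and chr11:55352704-55355361) in 16. Their mean log2 intensities were far apart, at 10.87 and 7.23 for Col4a4, 14.36 and 7.34 for Col22a1, and 10.56 and 8.09 for Sparc. Among 34 members with several placed probes, the brightest probe was the one nearest the 3′ end in 18 (52.9%), against 55.5% of 7219 such genes on the whole array. GC content had a median of 45.0% in the 56 member probes kept and 43.3% in the 61 not kept.

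Members of every role were detected. Kept, by having at least 4 of 8 channels of a group well above background, were 5 of 6 collagen IV chains (all but Col4a3), 9 of 11 laminins (all but Lama1, at 0 of 16 channels, and Lamb1, at 1 DEHP and 3 vehicle channels), 4 of 4 linkers (Nid1, Nid2, Hspg2 and Agrn), 9 of 11 fibrillar collagens and 17 of 23 other collagens. Itgb1, the beta chain of most laminin and collagen receptors, was not well above background in any of 16 channels on any of its 3 probes, and Fn1, fibronectin, was in 2 of 16 on its brightest probe. A probe below background gives only a bound, so nothing is said of the level of these genes. Itga6, the alpha chain that pairs with Itgb1 in a laminin receptor, was above background in all 16 on 1 of its 3 probes. On its other probes it was above background in 0. All 16 channels were above background for 32 of the 46 members tested (69.6%), against 82.4% of all genes tested.

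**Figure D1:**
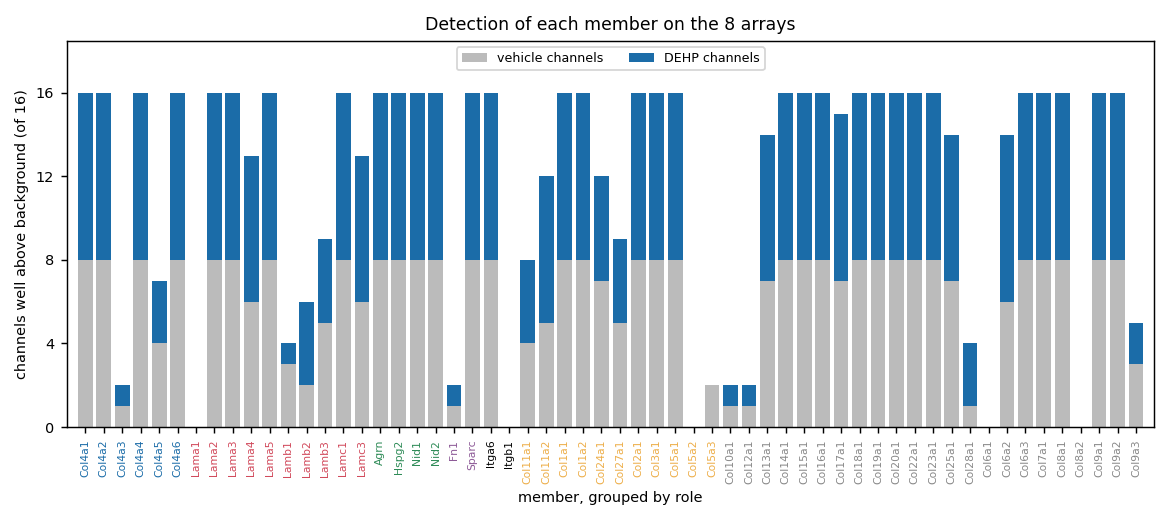
Channels well above background for the probe of each member shown, out of 16 (8 vehicle in grey, 8 DEHP in blue stacked on them), with names coloured and ordered by role. The 32 full bars reach 16, and Itgb1, Lama1, Col5a2, Col6a1 and Col8a2 are at 0.

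Between DEHP and vehicle mice, no collagen, laminin or other member passed the threshold. With limma, 0 of 46 members and 0% of the 16939 genes had an adjusted p under 0.05 (Benjamini-Hochberg over 22975 probes), and the smallest adjusted p of a member was 0.903 over 4 pairs. At an unadjusted p under 0.05 the count was 0 of 46 members, against 4.80% of all genes. The mean log2 ratio of DEHP over vehicle was above 0 in 23 of 46 members, with a median of -0.00056 (all genes, -0.000078) and a range of -0.31 to 0.17. The 95% interval lay within 1.5-fold either way for 41 of 46 members (92.8% of all genes) and within 2-fold for 46 of 46. The 5 wider ones were Col5a1, Col15a1, Col16a1, Col22a1 and Col23a1. These intervals hold for the reported processing alone, in which an offset of 50 draws the ratios of dim probes towards 0. With the extraction software's ratio, the mean of Col1a2 was 0.59, past 1.5-fold (log2 0.585), against 0.17 here. Larger changes in dim members are therefore not excluded.

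Among the collagen IV chains, Col4a1 was lower in DEHP in all 4 pairs. Its level, as log2 intensity, was 7.64, 7.65, 7.71 and 7.34 in DEHP mice 1 to 4 and 7.87, 7.84, 7.69 and 7.78 in vehicle mice 1 to 4. DEHP mouse 4 was the lowest of the 8, and the groups overlapped, since DEHP mouse 3 was above vehicle mouse 3. The pair log2 ratios were -0.20, -0.045, -0.065 and -0.52, with a mean of -0.21 (95% interval -0.45 to 0.035, unadjusted p = 0.0789 and adjusted p = 0.903 in limma), and the mean was -0.10 without pair 4. It was -0.49 with the extraction software's ratio and -0.42 with the authors' deposited ratios. Col4a2, whose gene starts head to head with Col4a1 in RefSeq, had pair values of -0.090, -0.00080, 0.14 and 0.19 and a mean of 0.060 (SD 0.13, n = 4), which was 0.017 without pair 4 and 0.11 without pair 1. The difference between these 2 genes was not tested.

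Col4a4 had levels of 10.94, 10.99, 10.95 and 10.74 in DEHP mice 1 to 4 and 11.08, 11.02, 10.57 and 10.60 in vehicle mice 1 to 4. Vehicle mice 3 and 4 were the lowest, so pairs 2 and 3 gave ratios of 0.42 and 0.35 while pairs 1 and 4 gave -0.078 and -0.34. Its mean of 0.088 had the other sign (-0.043) on the arrays with DEHP in Cy3 alone. Its dimmer probe gave 0.047 with an SD over pairs of 0.076, against 0.36 for the brighter. Col4a6 had a mean of 0.048 (-0.011 with DEHP in Cy3 alone) and Col4a5 of -0.051, with only 3 of 8 DEHP and 4 of 8 vehicle channels of Col4a5 above background. The Col4a5 mean was -0.0085 without pair 3 and -0.43 with the extraction software's ratio.

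Among the laminins, Lama2, an alpha chain prominent in the basement membranes of muscle and nerve, was higher in DEHP in all 4 pairs. Its levels were 7.91, 7.63, 7.64 and 7.72 in DEHP mice 1 to 4 and 7.45, 7.76, 7.62 and 7.57 in vehicle mice 1 to 4, so the groups overlapped. The pair ratios of 0.15, 0.0073, 0.072 and 0.27 gave a mean of 0.13 (95% interval -0.026 to 0.28, adjusted p = 0.903 in limma). This was 0.076 without pair 4, 0.070 with array weights and 0.26 with the extraction software's ratio. Lamc3 (mean 0.042) and Lamb3 (0.024), a gamma and a beta chain, were also higher in all 4 pairs, with pair values between 0.0018 and 0.073. Both were near background. Lamc3 was above it in 7 of 8 DEHP and 6 of 8 vehicle channels, and Lamb3 in 4 of 8 and 5 of 8.
Lama3 stood out in DEHP mouse 1, at 8.26 against 7.82 to 7.87 in the other DEHP mice, and had a mean of 0.025 (-0.064 without pair 1). Lama5 had pair values of -0.19, -0.037, -0.13 and 0.21. Lamc1, the gamma chain of most laminins, had a mean of -0.016 (SD 0.16) and Lama4 of 0.0017. Lamb2, at 0.019, passed through 4 of 8 DEHP channels with 2 of 8 vehicle channels above background.

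Higher in all 4 pairs were 4 of 46 members (Lama2, Lamc3, Lamb3 and Col11a2) against 6.69% of all genes, and lower in all 4 were 3 (Col4a1, Col5a1 and Col19a1) against 6.88%. As shares of the members these are 8.70% and 6.52%, near the values for all genes. The sign of Col11a2, at 0.027, turned under 5 alternative settings, and its second kept probe gave -0.020. The signs of the other 6 held under all settings that were run. Leaving out or weighting pairs cannot turn the mean of values that share 1 sign, and some settings leave the mean unchanged. That these signs held is therefore no added evidence for a change. Mouse levels did not overlap between the groups for 0 of 46 members and 1.77% of all genes.

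**Figure D2:**
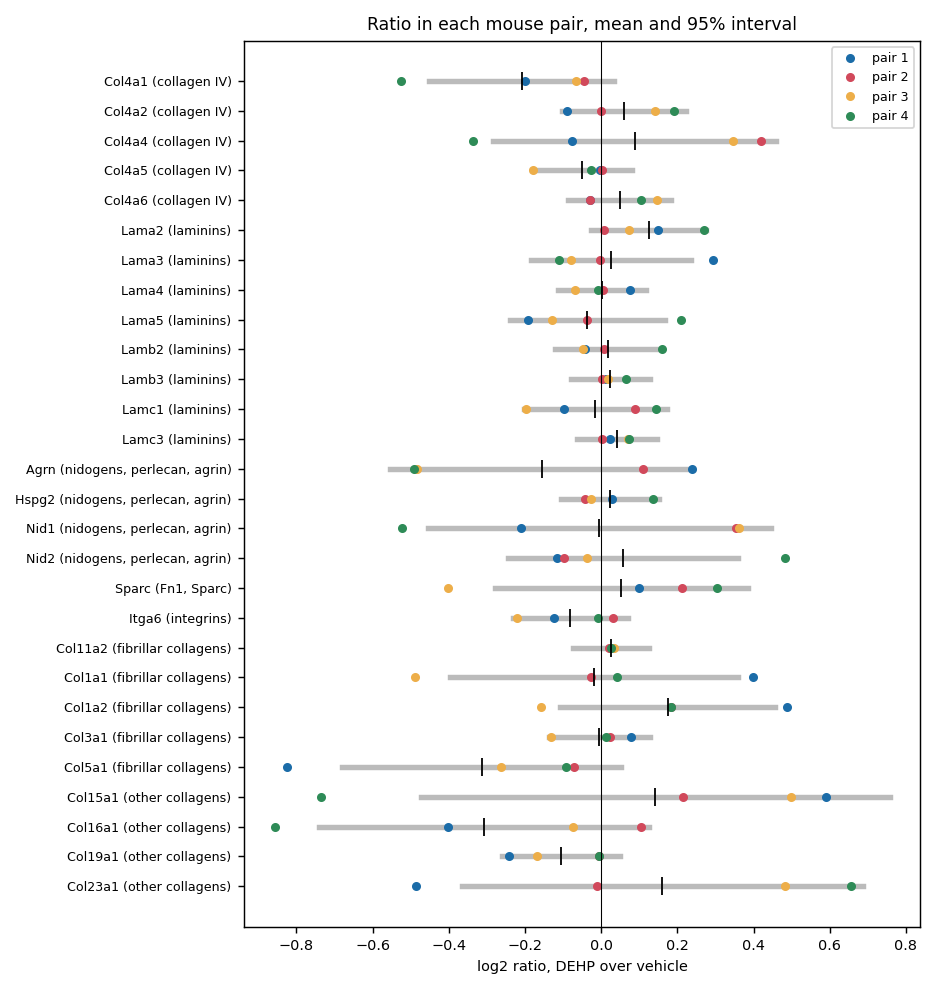
Log2 ratio of DEHP over vehicle (x axis) for the 28 named members shown (y axis, role in brackets), with 1 coloured point per mouse pair, a black tick at the mean and a grey bar for the 95% interval. Every bar crosses 0, and the pairs of Col15a1 and Nid1 lie on both sides of it.

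Among the linkers, Nid1 (nidogen 1) varied most. Its levels were 7.95, 8.48, 8.44 and 8.27 in DEHP mice 1 to 4 and 8.79, 8.16, 8.13 and 8.08 in vehicle mice 1 to 4. Vehicle mouse 1 was above all other mice, and the other vehicle mice lay between 8.08 and 8.16. The pair ratios were thus -0.21, 0.35, 0.36 and -0.52, with a mean of -0.0046 (SD 0.44, n = 4).
Nid2 had ratios of -0.12, -0.097, -0.038 and 0.48, pair 4 being of opposite sign to the other pairs and to Nid1 in pair 4. Agrn had 0.24, 0.11, -0.48 and -0.49, a mean of -0.16 (95% interval -0.55 to 0.24), which was -0.29 without pair 1, -0.047 without pair 3, -0.045 without pair 4 and -0.020 with array weights. Hspg2 varied least, with a mean of 0.023 and an SD of 0.080.

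Sparc, a collagen-binding matricellular protein, had levels of 10.52, 10.73, 10.52 and 10.57 in DEHP mice 1 to 4 and 10.26, 10.42, 10.52 and 10.92 in vehicle mice 1 to 4. Vehicle mouse 4 was the highest and vehicle mouse 1 the lowest, with the DEHP mice between them. The pair ratios were 0.10, 0.21, -0.40 and 0.31, and the dimmer probe gave -0.061, 0.021, -0.58 and 0.46. Both probes were thus lowest in pair 3 and highest in pair 4. Itga6 had a mean of -0.080 (95% interval -0.23 to 0.072), but 0.0029 on the arrays with DEHP in Cy3 alone.

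Of the fibrillar collagens, Col1a1 and Col1a2, the chains of collagen I, differed most between pairs 1 and 3. Col1a1 had ratios of 0.40, -0.027, -0.49 and 0.042, Col1a2 of 0.49, 0.18, -0.16 and 0.18, and Col3a1, the chain of collagen III, of 0.078, 0.023, -0.13 and 0.012. Each of the 3 was read from its only kept probe. All were lowest in pair 3 and highest in pair 1. In the same pairs the kept fibroblast markers had median ratios of 0.041 (pair 1) and -0.28 (pair 3), the peritubular myoid markers 0.16 and -0.076, and the Leydig markers -0.16 and -0.79. The Sertoli markers had 0.11 and -0.070 and the germ cell markers 0.063 and -0.036, also higher in pair 1 than in pair 3. The endothelial markers went the other way, at -0.070 and -0.0325, and the macrophage markers were nearly equal, at -0.072 and -0.071. Over all 4 pairs, only the fibroblast and peritubular myoid medians were highest in pair 1 and lowest in pair 3. The Leydig (0.23), Sertoli (0.13) and endothelial (-0.0045) medians were highest in pair 2. Those of germ cell (0.095) and macrophage markers (0.023) were highest in pair 4. Per mouse, the mean level of the 5 fibroblast markers ran from 7.42 to 7.59 in DEHP and 7.33 to 7.67 in vehicle, and that of the 5 Leydig markers from 8.64 to 9.34 and 8.74 to 9.45. Dpt and Fap among the fibroblast markers and Des among the peritubular ones were not kept. The part of these cells in the collagen values was not tested.

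Col5a1, a chain that sets the diameter of collagen I fibrils, had the lowest mean of any member. Its levels were 9.89, 10.64, 10.48 and 10.74 in DEHP mice 1 to 4 and 10.83, 10.71, 10.71 and 10.75 in vehicle mice 1 to 4. The vehicle mice were close together (SD 0.055) and DEHP mouse 1 was far below the rest. The ratios of -0.83, -0.070, -0.26 and -0.093 gave a mean of -0.31 (95% interval -0.68 to 0.053, adjusted p = 0.903 in limma), which was -0.14 without pair 1. Its second kept probe gave 0.040, of opposite sign, with pair values of -0.040, -0.012, 0.14 and 0.071. That probe was much dimmer, at a mean log2 intensity of 7.31 against 10.59, where the offset draws ratios towards 0.

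**Figure D3:**
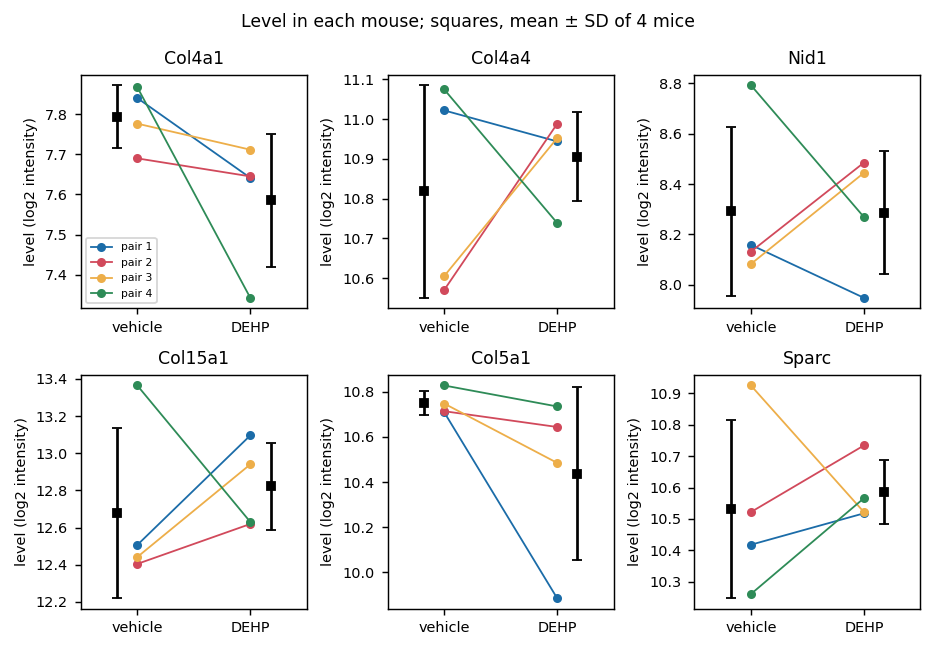
Level (log2 intensity, y axis, not from 0) of 6 members in each vehicle and DEHP mouse; lines join the mice of a pair, and squares show the mean ± SD of 4 mice. Vehicle mouse 1 (pair 4) is the highest mouse for Col4a1, Col4a4, Nid1, Col15a1 and Col5a1 and the lowest for Sparc. DEHP mouse 1 (pair 1) is the lowest for Nid1 and Col5a1.

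The widest spread over pairs was in the other collagens. Col15a1 had levels of 13.10, 12.62, 12.94 and 12.63 in DEHP mice 1 to 4 and 13.36, 12.51, 12.40 and 12.44 in vehicle mice 1 to 4. Vehicle mouse 1 was the highest of all the mice and the other vehicle mice were the lowest, so the groups overlapped. The ratios were 0.59, 0.22, 0.50 and -0.74, and the mean of 0.14 (SD 0.61, 95% interval -0.47 to 0.76) became 0.43 without pair 4 and -0.0070 without pair 1.
Col23a1, a transmembrane collagen, had ratios of -0.49, -0.012, 0.48 and 0.66. Col16a1, a fibril-associated collagen, had -0.40, 0.10, -0.074 and -0.86. Col19a1 had -0.24, -0.0064, -0.17 and -0.0069. Col22a1, which is outside the rule for named genes and was chosen after its values were seen because it had the smallest unadjusted p of the members (0.0766), had -0.43, -0.18, 0.090 and -0.69, and its second probe -0.060, -0.028, -0.14 and -0.041.

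Single pairs held larger differences than the means over pairs. Past 1.5-fold in at least 1 pair were 8 of 46 members (17.4%, against 10.9% of all genes): 2 in pair 1, 0 in pair 2, 1 in pair 3 and 6 in pair 4. In pair 4 the share was 13.0% of members and 5.40% of all genes, with 2 members higher and 4 lower. Vehicle mouse 1, the control of pair 4, had the highest level of the 8 mice in 11 members and the lowest in 11, or 23.9% each, against 20.5% and 22.8% of all genes. Vehicle mouse 4 was highest in 23.9% of members and 10.8% of all genes. These differences from all genes were not tested.

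The 2 arrays of a pair share their amplified RNA, so the spread between them leaves out differences between mice, captures and amplifications. The SD over pairs exceeded the SD between the 2 dye-swapped arrays of a pair in 36 of 46 members (78.3%, against 68.6% of all genes), with medians of 0.17 and 0.092. The dye-swapped arrays gave the same sign for 77.2% of the members' pair values and 68.7% of those of all genes. For Col15a1 the SD over pairs was 5.55 times that between arrays, for Col23a1 5.59 times and for Col6a3 11.8 times. These are unlike measures. The SD over pairs is of means of 2 arrays, while the SD between arrays is of single arrays. The latter also holds any effect of dye or slide.

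**Figure D4:**
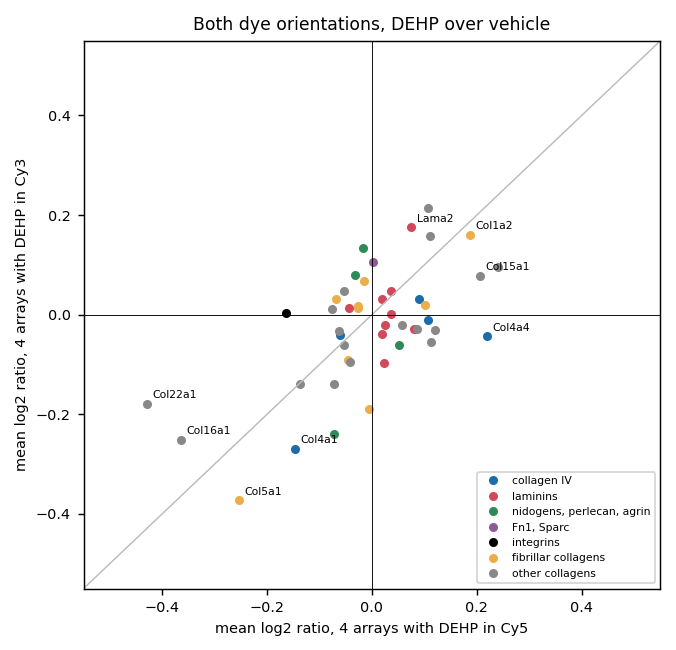
Mean log2 ratio of DEHP over vehicle for the 46 members on the 4 arrays with DEHP in Cy5 (x axis) and the 4 with DEHP in Cy3 (y axis), coloured by role; the grey line marks equal values. Col5a1, Col16a1, Col22a1 and Col4a1 are below 0 on both axes, and Col4a4 is at 0.22 and -0.043.

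Genes that fold, cross-link, cleave or bind these proteins did not pass the test either. The counts of adjusted calls were 0 of 18 for collagen folding and cross-linking, 0 of 14 for matrix proteases and their inhibitors, 0 of 23 for other matrix glycoproteins, 0 of 16 for other matrix receptors and 0 of 17 for integrin signalling and ectoplasmic specialisation, the junction between Sertoli cells and spermatids. Their median log2 ratios were -0.0086, 0.026, 0.026, 0.0029 and 0.0044. Only Sdc3, a membrane proteoglycan, had an unadjusted p under 0.05 (0.0482 in limma), with a mean of 0.16. This was 1 of the 16 other matrix receptors, against 4.80% of all genes. Its ratio was positive in all 4 pairs, as for 6.69% of all genes and for others in these lists, such as Sdc2 and Adamts2. Some, such as Ptk2 and Reck, were lower in all 4 pairs, as were 6.88% of all genes.
The 2 genes per list with the smallest unadjusted p included Adamts2, which trims procollagens (0.17, SD 0.14), and Loxl1, a cross-linking oxidase (0.22, SD 0.31). Ptk2, focal adhesion kinase, was at -0.097 (SD 0.066) and Ilk, integrin-linked kinase, at 0.10 (SD 0.11). Mmp14, a membrane protease, was at -0.15 with -0.61 in pair 3, and Reck, a protease inhibitor, at -0.070. Lum and Fras1, both matrix proteins, were at -0.12 and -0.13, and Itga11, a collagen receptor chain, at -0.22.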

How the data were processed

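The deposited scanner files give foreground and background intensity per spot without subtraction. Agilent Feature Extraction added a log10 ratio (Cy5 to Cy3), per the file headers. A second deposited table holds the authors' log2 ratios of DEHP over vehicle; the submitters' processing notes name limma, and the filter and normalization behind them are not given in the sources used here. Their rows were matched to spots by position, with a correlation of 0.943 to 0.972 per array, and their direction was found from the values.

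Intensities were corrected by normexp (offset 50), normalised by loess within arrays, averaged per probe, turned to DEHP over vehicle and averaged over the 2 arrays of a pair. Mouse levels were read per channel after loess and Aquantile. Per channel, 49.8% to 59.5% of probes were well above background, and 0 spots were saturated. Dye-swapped arrays correlated by 0.539 to 0.717. Probes well above background in at least 4 of 8 channels of a group were kept, and a gene took its brightest kept probe. An intercept over 4 pair means was tested with limma 3.58.1 in R 4.3.3 (2-sided, Benjamini-Hochberg, 0.05), and the fit was tested on simulated data. The pairs come from the labels: each holds 2 mice hybridised together. Alternatives covered background correction, normalization, the filter, pairing, dye orientation, weights, variance model, probe choice, the authors' ratios and each pair left out. The number of arrays limits the precision.

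Members, gene lists and tests were chosen with earlier results of these data known. Named were the 8 genes given by name, collagen IV, the kept laminins, up to 6 members per direction with the smallest p and 1 sign in all 4 pairs, the 4 with the largest SD, Col1a1, Col1a2 and Col3a1, and 2 genes per further list. Of the genes this rule names, 1 is not reported here.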

Additional observations from a re-analysis of the deposited data

Results flagged for a closer look

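For each of 28 named members, the pair ratios, the DEHP levels and the vehicle levels were taken as sets of 4 values. In 7 of the 84 sets, 1 value lay apart from the other 3 by more than Dixon's 95% critical value. Chance puts about 5% of sets past it where they are independent and not chosen by their values. Neither holds here: Nid1 and Col15a1 were among those named for a wide spread, and ratios and levels share their intensities. Vehicle mouse 1 was apart for Nid1, at 8.79 against 8.08 to 8.16, and for Col15a1, at 13.36 against 12.40 to 12.51. Vehicle mouse 2 was apart for Col4a6, at 8.32 against 7.85 to 7.93. DEHP mouse 1 was apart for Lama3, at 8.26 against 7.82 to 7.87, and DEHP mouse 4 for Lama5, at 7.67 against 7.41 to 7.45. Among the ratios, pair 4 was apart for Nid2, at 0.48 against -0.12 to -0.038, and pair 3 for Col4a5, at -0.18 against -0.026 to 0.0031.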

How the results depend on the processing

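Under every alternative run, 0 probes (17 alternatives) and 0 members (18) were called, with smallest adjusted p of 0.444 and 0.472 and between 0 and 3 members at an unadjusted p under 0.05. Probes at that unadjusted p numbered 1055 in the reported fit, 150 with a trended and robust variance and 2426 with DEHP in Cy3 alone. The median log2 ratio of the members ran from -0.016 to 0.021. The pairing comes from the labels, and without the replicate block (8 mice unpaired) the median was -0.00056 with 0 members called. Each mouse is in 1 pair, so the unpaired mean ratio equals the paired one by construction, and only the p-values can differ. The fits with a trended and robust variance or with the pair as a random block also leave the mean ratio unchanged. Finding members by gene name alone, an alternative added after seeing the data, gave -0.00056 over 44 members. Of 28 named members, 11 kept their sign throughout, and 55 of 491 values had the other sign, none of them called. The 491 include values from the settings that leave the mean unchanged, so these counts overstate how far the signs were tried. The cause of the sign changes was not tested. With DEHP in Cy3 alone, Col1a1 was 0.032, Col3a1 0.017, Col4a4 -0.043, Col4a6 -0.011, Itga6 0.0029, Lama3 -0.029, Lama4 -0.021 and Lamc1 0.013. With DEHP in Cy5 alone, Col11a2 was -0.014, Hspg2 -0.033, Lama5 0.023, Nid1 0.051 and Nid2 -0.017. With all 16 channels above background, Col11a2 was -0.020, read from its second kept probe. Its brightest probe, above background in 7 DEHP and 5 vehicle channels, did not pass that filter. With array weights, Col3a1 was 0.0063, Hspg2 -0.010, Lamc1 0.0087, Nid1 0.17 and Nid2 -0.038. With the extraction software's ratio, Col11a2 was -0.049, Col3a1 0.11, Hspg2 -0.084, Lamc1 0.085, Nid1 0.27 and Nid2 -0.024. With the mean over kept probes, Hspg2 was -0.0014. With median centring, Col11a2 was -0.033. Without background correction, Col11a2 was -0.00064, Col3a1 0.043, Hspg2 -0.034, Lamc1 0.042, Nid1 0.19 and Nid2 -0.0056. With an offset of 16, Lama4 was -0.0018. With the authors' deposited ratios, Col3a1 was 0.060, Hspg2 -0.071, Lamc1 0.060, Nid1 0.30 and Nid2 -0.0083. With 1 pair left out, values ran as follows where the sign changed: Col15a1 -0.0070 to 0.43, Col1a1 -0.16 to 0.14, Col23a1 -0.0053 to 0.38, Col3a1 -0.032 to 0.037, Col4a4 -0.022 to 0.23, Hspg2 -0.014 to 0.045, Lama3 -0.064 to 0.070, Lama4 -0.023 to 0.025, Lama5 -0.12 to 0.015, Lamb2 -0.028 to 0.041, Lamc1 -0.069 to 0.045, Nid1 -0.13 to 0.17, Nid2 -0.083 to 0.12 and Sparc -0.031 to 0.21. For the other named members they were Agrn -0.29 to -0.045, Col11a2 0.024 to 0.029, Col16a1 -0.44 to -0.12, Col19a1 -0.14 to -0.061, Col1a2 0.069 to 0.28, Col4a1 -0.26 to -0.10, Col4a2 0.017 to 0.11, Col4a5 -0.069 to -0.0085, Col4a6 0.015 to 0.075, Col5a1 -0.39 to -0.14, Itga6 -0.12 to -0.033, Lama2 0.076 to 0.16, Lamb3 0.011 to 0.032 and Lamc3 0.032 to 0.055. With the extraction software's ratio, Col1a2 was also 0.59 and Col19a1 -0.23, and with array weights Col16a1 was -0.11. The 4 pairs and 1 slide per dye orientation limit these values, as does signal near background for the members not above it in all 16 channels.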
